A study of Mus musculus with 2 samples.

Results

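The genes of T cell costimulation listed here were followed in tumor-infiltrating immune cells (TIIs): the receptors Cd28, Icos, Cd27, Tnfrsf4 (OX40), Tnfrsf9 (4-1BB) and Tnfrsf18 (GITR), the ligands Cd80 and Cd86, and the pair Cd40 and Cd40lg. They were chosen by name from the 31053 genes of the count matrices, and all 10 were present in both. The question was how strongly each of them is transcribed in each kind of intratumoral immune cell, and how that level compares between creatine-treated and control mice.

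TIIs were isolated from B6 mice carrying B16-OVA tumors, a mouse melanoma line that expresses chicken ovalbumin, at day 14. The control library came from mice given PBS and the creatine library from mice given 10.5 mg of creatine by intraperitoneal injection. Injections were daily and the mice were male unless noted otherwise, according to the study's methods. Each library combined 4 tumors, was sorted for live CD45.2+ cells and was loaded at 10000 cells for droplet single-cell RNA sequencing (scRNA-seq) of transcript 3′ ends. The treatment protocol entered for the control sample also names creatine, so its group was taken from its title and from its separate treatment entry. Both groups were wild-type mice of the same strain. The day and the number of tumors follow the labels, while the study elsewhere gives a different day and number of mice for the profiling of TIIs. Pooling left 1 library per group, so no comparison below has a replicate check, and a difference between the mice, the tumors or the libraries cannot be told apart from an effect of creatine.

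A T cell that binds antigen needs a second signal, which CD28 supplies when it meets CD80 or CD86 on an antigen-presenting cell. ICOS, a close relative of CD28, adds to or prolongs that signal, mostly after activation. So do the tumor necrosis factor receptors CD27, OX40, 4-1BB and GITR, which act through TRAF adaptors and NF-kB. CD40 on dendritic cells (DCs), macrophages and B cells is engaged by CD40 ligand, largely from CD4 T cells, and licenses the presenting cell to prime T cells. Treg cells are known for high OX40, 4-1BB, GITR and ICOS, and these receptors are studied as antibody targets in tumors.

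In the mm10 mouse genome the members fall into a few neighborhoods. Cd28 (chr1:60716800-60773359) and Icos (chr1:60977927-61000320) lie on the forward strand with the inhibitory receptor Ctla4 between them. Tnfrsf4 (chr4:156013843-156016612) and Tnfrsf18 (chr4:156026164-156028895) are separated by 9551 bases, and Tnfrsf9 (chr4:150914562-150946102) lies on the same chromosome. Cd86 (chr16:36603869-36666081, reverse strand) and Cd80 (chr16:38455561-38496335) share chromosome 16. Cd27 (chr6:125232622-125237010, reverse strand), Cd40 (chr2:165055627-165072948) and Cd40lg (chrX:57212143-57224042) stand alone.

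RefSeq promoter windows (GRCm38.p6, the assembly of mm10) were matched by symbol for 5 of the 10 members, Cd27, Cd80, Tnfrsf4, Tnfrsf9 and Tnfrsf18. Tnfrsf9 is shown because it was the most abundant of the receptors in CD8 T cells, and it has 2 annotated starts. Given are the 250 bases before the first start and the matched sites before the second, with 4 bases on each side. Capitals mark matches to the letters of an NF-kB site (GGG, any 2 bases, TT, any base, CC) or to TGANTCA, the letters of an AP-1 site. Both strands of the 300-base windows were searched.
Tnfrsf9, before the first start, chr4:150919905-150920154, forward strand: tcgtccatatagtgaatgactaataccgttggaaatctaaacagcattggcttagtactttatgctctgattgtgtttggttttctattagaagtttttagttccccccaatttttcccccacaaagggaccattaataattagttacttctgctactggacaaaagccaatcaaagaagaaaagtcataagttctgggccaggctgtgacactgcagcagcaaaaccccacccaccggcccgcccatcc
Tnfrsf9, NF-kB letters before the second start, chr4:150927952-150927970, forward strand: agctGGGGATTTCCCagga
Tnfrsf9, AP-1 letters before the second start, chr4:150927980-150927994, forward strand: cagtTGAGTCAcagg
Both starts lie inside the span of the gene given above, and both matched sites fall within a 5′ untranslated exon of 1 other annotated Tnfrsf9 transcript. The second Tnfrsf9 window held 2 overlapping NF-kB letter matches, 43 and 42 bases before the start, and 1 AP-1 letter match 15 bases before it. Cd80 had an AP-1 letter match 42 bases before its start. No match was found in the windows of Tnfrsf4, Tnfrsf18, Cd27 or the first Tnfrsf9 start. Of 32851 promoter windows of the same length, 4.79% held the NF-kB letters and 7.81% the AP-1 letters. A match describes letters only, and binding was not measured.

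The control library held 7241 cells and the creatine library 6229 cells after removal of 408 and 274 cells with over 25% mitochondrial unique molecular identifiers (UMIs). The study's methods state the same filter but describe hardly any cell as removed. The libraries had 79319769 and 72091124 UMIs, with a median of 7688 and 8475 per cell, and shared 29 cell barcodes. Cells were gated by UMIs of marker genes, and 71.1% of control and 78.0% of creatine cells entered a gate. The main gates held 2426 and 1999 CD8 T cells, 363 and 230 Foxp3+ Treg cells, 194 and 223 Foxp3-negative conventional CD4 T (CD4 Tconv) cells and 677 and 1154 NK cells. The antigen-presenting gates held 909 and 356 macrophages, 145 and 82 conventional DCs (cDCs), 125 and 270 classical monocytes, 152 and 370 nonclassical monocytes and 22 and 42 B cells. Most markers that the gates did not use followed the names. For example, Gzma reached 4854 and 7012 CPM in NK cells, Ikzf2 1490 and 1888 CPM in Treg cells and Flt3 178 and 149 CPM in cDC1. The share of cDC1 with a Flt3 UMI was lower in the creatine library, at 66.7%, than in the control library, at 93.3%. Among the markers that did not, Sirpa was no higher in control cDC2, at 126 CPM, than in other cells, at 182 CPM. Ikzf2, which marks many Treg cells, reached 408 CPM in CD4 Tconv cells of the control library and 224 CPM in those of the creatine library. The share of these cells with an Ikzf2 UMI went the other way, at 30.9% in control and 35.9% in creatine.

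Levels are given as CPM, the UMIs of a gene as a share of all UMIs in a gate in units of 1 per 1000000, control value first. Each carries an exact 95% Poisson interval, and each log2 ratio of creatine to control an exact 95% conditional interval. These intervals cover counting error only. A gene was counted as past the fold when the ratio reached 1.5 in either direction with at least 30 UMIs over both libraries. With 3′ counting, each transcript gives about 1 tag, so CPM is not divided by transcript length.

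**Figure D1:**
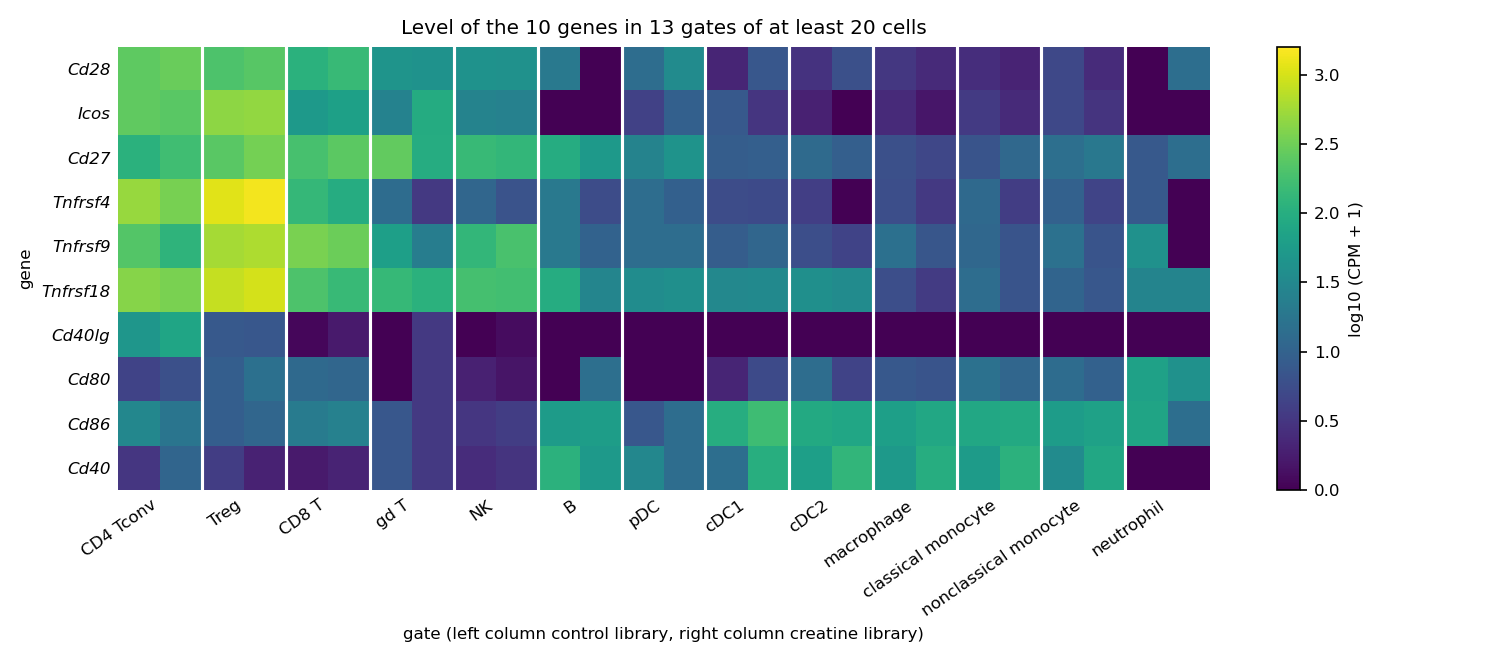
Level of the 10 genes (rows) in 13 marker gates with at least 20 cells in each library, as color for log10(CPM + 1), with the control library in the left and the creatine library in the right column of each gate. By the mean of both columns, the 6 receptors are brightest in Treg or CD4 Tconv cells and Cd40lg in CD4 Tconv cells. Cd86 and Cd40 are brightest in the cDC1, cDC2, macrophage, monocyte and B cell gates.

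The receptors were led by Treg cells. Tnfrsf4 was highest there, at 1125 and 1402 CPM, followed by CD4 Tconv cells at 502 and 346 CPM and CD8 T cells at 136 and 93.4 CPM. The other 10 gates with at least 20 cells in each library were at or under 18.8 CPM, NK cells included, with the DC subsets read one by one. Tnfrsf18 followed the same order at the top, with 830.0 and 987 CPM in Treg cells and 417 and 356 CPM in CD4 Tconv cells. Its level in NK cells, 181 and 171 CPM, fell inside the span of the CD8 T libraries, 202 and 143 CPM. Tnfrsf9 was also highest in Treg cells, but CD8 T cells came next, and the libraries of CD4 Tconv and NK cells overlapped below them.

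Icos, whose product sustains helper and Treg cells, stood at 451 and 483 CPM in Treg cells and 263 and 239 CPM in CD4 Tconv cells. In CD8 T cells it was at 53.0 and 65.0 CPM. Cd28 had a different order, since CD4 Tconv cells at 252 and 293 CPM lay above Treg cells at 200.2 and 231 CPM. Cd27, a receptor for CD70 that naive and memory cells carry, was the most evenly spread. Its libraries overlapped in turn from Treg through CD8 T, gamma-delta T and NK to CD4 Tconv cells. Cd40lg was highest in CD4 Tconv cells, with 47.0 and 74.4 CPM there from 42 of the 111 and 102 of the 199 UMIs of all cells, 6.85 and 6.29 CPM in Treg cells and no UMI in any DC, macrophage, monocyte, B cell or neutrophil gate. In macrophages, the deepest of these, a count of 0 allows up to 0.19 and 0.35 CPM.

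On the ligand side Cd86 was highest in cDC1 among the gates with at least 20 cells in each library, at 97.5 and 162 CPM. The classical monocyte, cDC2, macrophage, nonclassical monocyte and B cell gates followed, and each overlapped its neighbor. The smaller Ccr7+ DC gate, of 24 and 8 cells, was above cDC1 in each library. Its Cd86 was at 260 CPM (201 to 330) and 309 CPM (212 to 437), from 67 and 32 UMIs. Cd40 showed no resolved order among cDC2, classical monocytes, B cells, macrophages, nonclassical monocytes and cDC1, because the creatine library lay far above the control library in most of them. Cd80 was scarce throughout. Its highest levels, 69.8 and 67.6 CPM, were found in the Ccr7+ DC gate of 24 and 8 cells and rested on 18 and 7 UMIs. Neutrophils followed, at 67.2 CPM (32.2 to 124) and 40.3 CPM (8.31 to 118), from 10 and 3 UMIs. The neutrophil gate set no limit on MHC class II genes. The summed CPM of H2-Aa, H2-Ab1 and H2-Eb1 there was 9286 in control, against 9298 in control macrophages, and 121 in creatine. The part of other cells in the neutrophil Cd80 values was not tested.

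The 6 receptors behaved as 2 groups in CD8 T cells, the largest gate. Cd28, Icos and Cd27 were higher in the creatine library, and Tnfrsf4, Tnfrsf9 and Tnfrsf18 were lower. None of the 6 was past 1.5-fold. Over all 12090 genes with enough UMIs in this gate, 4.97% were higher and 5.04% lower by that rule, and the median log2 ratio was 0.04.

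Cd28 was at 110.3 CPM (106.7 to 114.0) in control and 140.4 CPM (136 to 145) in creatine CD8 T cells, a log2 ratio of 0.35 (0.28 to 0.41). Cd27 was at 186 CPM (182 to 191) and 246 CPM (241 to 252), a log2 ratio of 0.40 (0.35 to 0.45). Icos was at 53.0 CPM (50.5 to 55.5) and 65.0 CPM (62.2 to 67.9), a log2 ratio of 0.30 (0.20 to 0.39). For each of these genes the counting intervals of both libraries were apart, with creatine above.

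Tnfrsf4 went the other way, from 136 CPM (132 to 140.0) to 93.4 CPM (90.0 to 96.9), a log2 ratio of -0.54 (-0.61 to -0.47). Tnfrsf18 was at 202 CPM (197 to 207) and 143 CPM (139 to 148), a log2 ratio of -0.49 (-0.55 to -0.44). Tnfrsf9, the most abundant of the 6 in CD8 T cells, was at 357 CPM (350.2 to 363) and 303 CPM (297 to 309), a log2 ratio of -0.24 (-0.27 to -0.20). The creatine library was thus the lower for all 3 inducible receptors of this family, by an amount smaller than 1.5-fold. The directions of all 6 ratios were the same under the 8 other ways of scaling, filtering and gating tried on this gate.

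**Figure D2:**
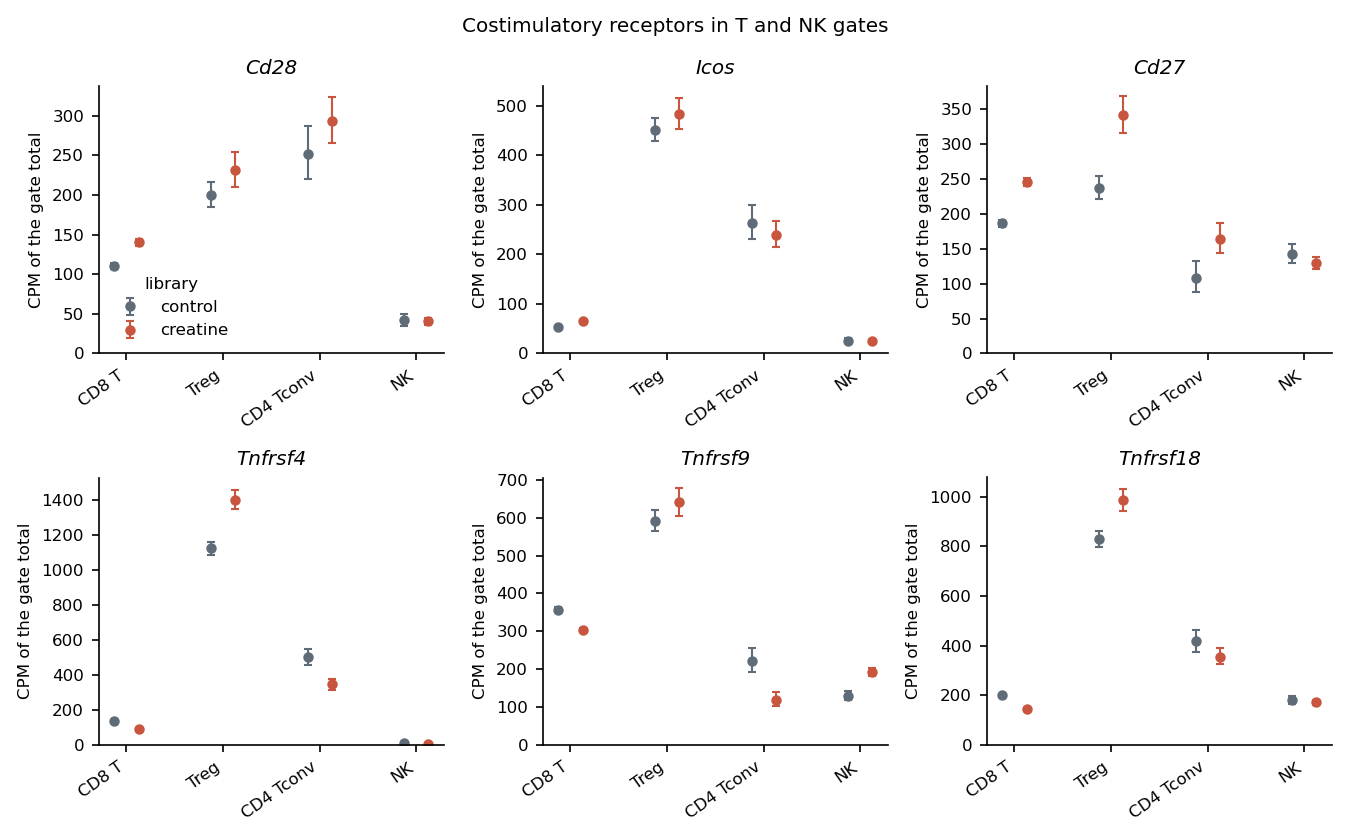
CPM of the 6 receptors in the CD8 T, Treg, CD4 Tconv and NK gates of the control (gray) and creatine (red) libraries. Points are CPM over all cells of a gate and bars are exact 95% Poisson intervals, which cover counting error only; Tnfrsf4, Tnfrsf9 and Tnfrsf18 are lower in creatine CD8 T and CD4 Tconv cells and higher in creatine Treg cells, except that Tnfrsf9 and Tnfrsf18 in CD4 Tconv cells turn higher without Ikzf2 cells and all 3 turn lower in non-dividing Treg cells.

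The shares of cells with a UMI were compared at an equal depth. Each cell was thinned to 2000 UMIs, which left out 42 control and 13 creatine CD8 T cells below that depth. A Cd27 UMI was found in 32.1% of control cells (30.2 to 34.0, exact Clopper-Pearson) and 37.9% of creatine cells (35.7 to 40.0), and a Cd28 UMI in 19.9% (18.3 to 21.6) and 25.5% (23.6 to 27.5). A Tnfrsf4 UMI was found in 15.1% (13.7 to 16.6) and 10.8% (9.45 to 12.2), and a Tnfrsf18 UMI in 30.5% (28.7 to 32.4) and 23.6% (21.7 to 25.5). For Tnfrsf9 the shares were 35.3% (33.4 to 37.3) and 32.0% (29.9 to 34.1), and those intervals overlapped, as did those for Icos, at 10.4% (9.17 to 11.7) and 12.6% (11.2 to 14.2). At 1000 UMIs per cell the order of the libraries was the same for each of the 6, and the intervals overlapped for Icos and for Tnfrsf18, which was found in 16.1% (14.6 to 17.6) and 14.5% (12.9 to 16.1). Without thinning, where the median depths were 10053 and 12214 UMIs, the shares were 81.2% and 89.4% for Cd27, 62.7% and 73.7% for Cd28, 43.6% and 37.3% for Tnfrsf4, 74.0% and 72.1% for Tnfrsf18, 41.3% and 49.5% for Icos and 69.4% and 67.0% for Tnfrsf9. Macrophages, a gate outside the T and NK cells with a median of 15006 and 21952 UMIs, gave the background at the same thinned depth. There a Tnfrsf9 UMI was seen in 2.46% and 1.15% of cells a Cd27 UMI in 1.01% and 0.86% and a Tnfrsf4 UMI in 0.89% and 0.57%.

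At least 1 UMI of Tnfrsf4, Tnfrsf9 or Tnfrsf18 was present in 57.5% of thinned control and 49.9% of creatine CD8 T cells. At least 2 of the 3 were present in 20.1% and 14.1%. In contrast, a UMI of any of the 6 receptors was present in 77.9% and 79.1%. Tnfrsf4 was the least evenly shared, since the 10% of CD8 T cells with the most Tnfrsf4 held 62.0% of its UMIs in control and 68.0% in creatine. For Cd27 the top 10% held 32.0% and 28.3%.

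CD8 T cells were then split by UMIs of 8 cell cycle genes, and by Pdcd1 with Havcr2 or Lag3 among the non-dividing cells. Dividing cells made up 40.3% of control and 39.8% of creatine CD8 T cells. Within them Tnfrsf4 passed 1.5-fold, from 152 to 101 CPM (log2 ratio -0.60, -0.68 to -0.51), where 4.88% of genes were lower by that rule. In non-dividing cells its ratio was -0.31 (-0.48 to -0.14), and in non-dividing checkpoint-positive cells -0.19 (-0.37 to -0.01). Tnfrsf9 narrowed in the same way, from -0.21 (-0.26 to -0.16) in dividing cells to -0.01 (-0.11 to 0.09) in checkpoint-positive cells, at 347 and 345 CPM. Tnfrsf18 stayed between -0.54 and -0.38 in these subsets. Cd28 and Cd27 kept ratios of 0.28 to 0.45 in each of them, and Icos reached 0.53 (0.34 to 0.72) in checkpoint-positive cells, at 75.8 and 109 CPM.

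Non-dividing CD8 T cells with naive and memory genes and without checkpoint genes, 169 and 212 cells, had little Tnfrsf4 and Tnfrsf9. Tnfrsf9 was at 27.8 CPM (18.3 to 40.5) and 31.2 CPM (22.9 to 41.5) there, and Tnfrsf4 rested on 17 and 5 UMIs. Tnfrsf18 did not separate either, at 115 CPM (95.05 to 139) and 121 CPM (104 to 140.0). The ratios of Tnfrsf9 (0.17), Tnfrsf18 (0.07) and Icos (-0.11) had the opposite sign to those of all CD8 T cells, each with an interval that held 0. Cd28 and Cd27 were again higher in the creatine library, with log2 ratios of 0.55 (0.18 to 0.92) and 0.45 (0.17 to 0.73).

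In Treg cells, whose suppressive program is marked by Foxp3, all 6 receptors were higher in the creatine library, and none was past 1.5-fold. Tnfrsf4 was at 1125 CPM (1088 to 1162) and 1402 CPM (1350 to 1457), a log2 ratio of 0.32 (0.25 to 0.39). Tnfrsf18 was at 830.0 CPM (799 to 862) and 987 CPM (943 to 1033), a log2 ratio of 0.25 (0.16 to 0.34). Cd27 had the largest of the 6 ratios, 0.53 (0.37 to 0.68), from 238 to 342 CPM. Icos and Tnfrsf9 had the smallest, 0.10 (-0.02 to 0.22) and 0.11 (0.01 to 0.22), and the Icos interval held 0. The median over the 6 was 0.23, against 0.07 over all 8869 genes of the gate, of which 9.61% were higher and 6.14% lower by 1.5-fold.

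The Treg ratios depended on which Treg cells were read. Dividing cells made up 28.4% of control and 19.1% of creatine Treg cells and held 58.1% and 37.2% of the gate's UMIs, and their receptor levels were lower. In dividing Treg cells Tnfrsf4 was at 731 and 1017 CPM (log2 ratio 0.48, 0.34 to 0.61), and all 6 ratios were above 0. In non-dividing Treg cells it was at 1804 and 1605 CPM (log2 ratio -0.17, -0.27 to -0.07), and only Cd27, with a ratio of 0.19, was above 0. Icos had the lowest ratio there, at 741 and 557 CPM (log2 ratio -0.41, -0.58 to -0.25). Of the receptors whose sign changed, only Tnfrsf4 and Tnfrsf9 had intervals clear of 0 in both dividing and non-dividing cells. Giving each Treg cell equal weight also turned the ratios of Icos, Tnfrsf4, Tnfrsf9 and Tnfrsf18 below 0. At 2000 UMIs per cell a Tnfrsf4 UMI was found in 80.3% (75.6 to 84.4) of control and 82.1% (76.4 to 86.9) of creatine Treg cells, so no difference in the share of positive cells was detectable at this depth. The unthinned shares were 92.6% and 91.3%.

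**Figure D3:**
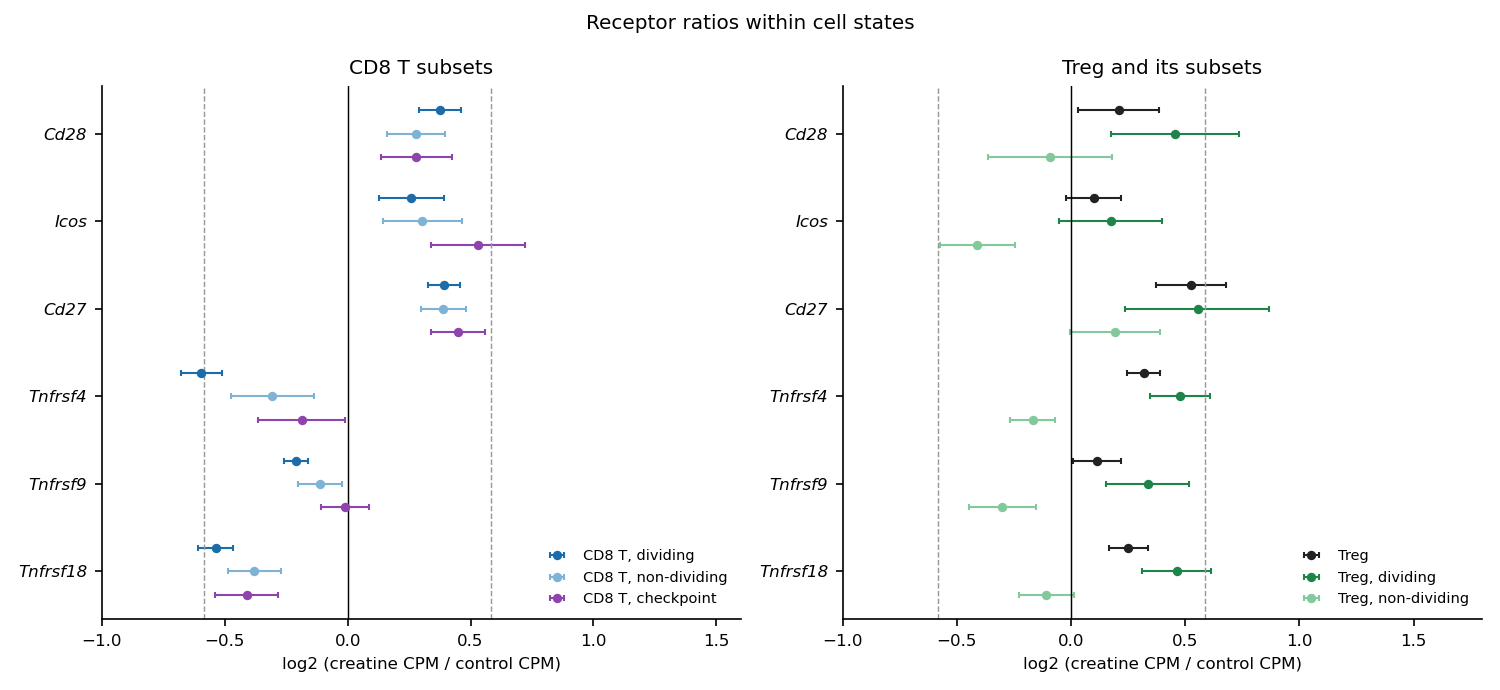
Log2 ratio of creatine to control CPM (horizontal axis) for the 6 receptors within CD8 T cell subsets (left) and in all, dividing and non-dividing Treg cells (right), with exact 95% intervals for counting error and dashed lines at 1.5-fold. In the 3 CD8 T subsets drawn the ratios keep their signs, although Tnfrsf9 comes to -0.01 in checkpoint-positive cells. In Treg cells 5 of the 6 ratios change sign between dividing and non-dividing cells. Of these, only Tnfrsf4 and Tnfrsf9 have intervals clear of 0 in both.

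CD4 Tconv cells, which hold the helper cells, had fewer UMIs, 894024 and 1370897 in the gate. Of the 6 receptors and Cd40lg, 2 were higher by 1.5-fold and 1 was lower, against 8.19% and 7.67% of all genes in the gate. Cd27 was at 108 CPM (88.0 to 132) and 164 CPM (143 to 187). Cd40lg, the helper signal for CD40, was at 47.0 CPM (33.9 to 63.5) and 74.4 CPM (60.7 to 90.3), with a log2 ratio of 0.66 (0.13 to 1.22). Tnfrsf9 was lower, at 221 CPM (192 to 255) and 120 CPM (102 to 139). Each of these directions was a difference between 2 libraries of about 200 cells.

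The lower Tnfrsf9 level in CD4 Tconv cells depended on which cells were read. The 10% of cells with the most Tnfrsf9 held 80.3% of its UMIs in control and 81.7% in creatine. A single cell held 30 of the 198 UMIs in control and 40 of the 164 in creatine. Once the cells with an Ikzf2 UMI were left out, 134 and 143 cells remained, and the log2 ratio turned from -0.89 (-1.20 to -0.58) to 1.00 over 101 UMIs. In non-dividing cells it was -0.10. Tnfrsf4 was at 502 CPM (457 to 551) and 346 CPM (316 to 379), a log2 ratio of -0.54. Without the Ikzf2 cells it came to -0.08, and Tnfrsf18 turned from -0.23 to 0.16. The ratios of Cd27 and Cd40lg stayed above 0, at 0.95 and 0.50. Whether the Ikzf2+ cells were Treg cells with no Foxp3 UMI was not tested.

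NK cells carried Tnfrsf18, Cd27 and Tnfrsf9, of which 4-1BB is known as an inducible activating receptor of NK cells. Tnfrsf9 was at 130 CPM (118 to 143) in control and 192 CPM (182 to 202) in creatine NK cells, a log2 ratio of 0.57 (0.41 to 0.73), just under 1.5-fold. It was the only receptor of the 6 with a ratio above 0 in this gate. Tnfrsf18 was at 181 CPM (167 to 197) and 171 CPM (162 to 181), and Cd27 at 143 CPM (130.3 to 157) and 130 CPM (122 to 138), and in both cases the intervals of the libraries overlapped. Tnfrsf4 was the 1 gene past the fold, at 10.4 and 5.57 CPM from 33 and 42 UMIs, where 4.9% of genes were lower and 4.53% higher. Macrophages were at 4.96 CPM (3.92 to 6.19) and 2.44 CPM (1.51 to 3.73), below the NK cells in each library. Plasmacytoid DCs, at 12.8 and 8.57 CPM from 4 and 2 UMIs, were above them. Classical monocytes, at 11.5 and 2.85 CPM from 14 and 8 UMIs, were above NK cells in the control library only. So were B cells, at 18.8 and 4.62 CPM from 1 UMI in each library. The NK level was thus not set apart from that of gates outside the T and NK cells.

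NK cells were then split by a UMI of Itgam, a marker of NK maturation. In cells without one Tnfrsf9 was at 129 CPM (115 to 143) and 203 CPM (191 to 215). The log2 ratio was 0.66 (0.48 to 0.84), past 1.5-fold, as were 4.55% of genes in that direction. NK cells with an Itgam UMI, 126 and 326 cells, gave 135 CPM (108 to 168) and 163 CPM (146 to 182), and those intervals overlapped. Their log2 ratio was 0.27 (-0.08 to 0.64). The intervals of both ratios overlapped, so the subsets were not resolved from each other. At 2000 UMIs per cell a Tnfrsf9 UMI was found in 16.7% (13.9 to 19.9) of control and 22.0% (19.6 to 24.5) of creatine NK cells, and these intervals overlapped slightly. Unthinned shares were 29.2% and 43.7%. The 10% of NK cells with the most Tnfrsf9 held 68.0% of its UMIs in control and 61.0% in creatine.

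Gamma-delta T cells, a small innate-like T cell gate of 29 and 73 cells, had Icos at 25.4 CPM (6.91 to 64.9) and 92.7 CPM (65.6 to 127), from 4 and 38 UMIs. Cd27 was at 273 CPM (197 to 367) and 95.2 CPM (67.7 to 130.1), from 43 and 39 UMIs. Icos was thus higher and Cd27 lower by 1.5-fold in the creatine library, where 24.5% of genes were higher and 7.46% lower. The gate did not hold the same cells in both libraries, since Cd163l1, a marker of one gamma-delta subset, had a UMI in 13.8% of control and 64.4% of creatine cells. The part of that shift in the receptor values was not tested.

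Markers of other cells moved with the libraries in these gates. The summed CPM of C1qa, C1qb and C1qc, which belong to macrophages, was 67.2 and 32.3 in CD8 T cells and 145 and 56.5 in NK cells, and that of H2-Aa, H2-Ab1 and H2-Eb1 was 110 and 44.9 in CD8 T cells and 231 and 92.3 in NK cells. Their part in the receptor results was not tested. The macrophage gate itself held the 6 receptors at between 0.58 and 14.2 CPM in both libraries. All 5 with enough UMIs were lower there in the creatine library, 4 of them by 1.5-fold, against 5.48% of genes.

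Among the ligand-side members Cd40 had the widest difference. It was higher in the creatine library, and past 1.5-fold, in the cDC1, cDC2, Ccr7+ DC, macrophage, classical monocyte and nonclassical monocyte gates. Plasmacytoid DCs were not among these 6 gates, and had 9 and 3 Cd40 UMIs, at 28.9 and 12.9 CPM. The log2 ratios ran from 0.93 to 2.91. In the same 6 gates Cd86 was above 0 in 5 and past the fold in 1, and Cd80 was below 0 in each of the 3 gates with enough UMIs. All 3 of these Cd80 intervals held 0. Of the 5 Cd86 ratios above 0, only those of cDC1 and macrophages had intervals clear of 0.

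In macrophages Cd40 was at 51.7 CPM (48.2 to 55.4) in control and 98.8 CPM (92.2 to 106) in creatine, a 1.91-fold difference resting on 814 and 850 UMIs (log2 ratio 0.93, 0.79 to 1.07). Over all 10957 genes of that gate 3.42% were higher and 5.48% lower by 1.5-fold, and the median log2 ratio was -0.02. At 2000 UMIs per cell a Cd40 UMI was present in 9.84% (7.97 to 12.0) of control and 17.8% (13.9 to 22.2) of creatine macrophages. Unthinned shares were 47.4% and 72.5%, at a median of 15006 and 21952 UMIs per cell. NK cells, as a gate without CD40, had a Cd40 UMI in 0.31% and 0.53% of thinned cells, at an unthinned median of 4073 and 5630 UMIs. The ratio in macrophages stayed between 0.86 and 1.02 under the 8 other settings tried.

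Monocytes showed a difference of the same kind. Classical monocytes were at 56.6 CPM (44.0 to 71.6) and 114 CPM (102 to 127) of Cd40, and nonclassical monocytes at 34.2 CPM (23.8 to 47.6) and 82.9 CPM (73.6 to 93.1). Their log2 ratios were 1.01 (0.64 to 1.41) and 1.28 (0.77 to 1.83), where 11.1% and 9.02% of genes were higher by 1.5-fold. When higher marker counts were required, the ratio in classical monocytes was 0.30. The classical monocyte gate differed between libraries in other genes as well. Vcan, which went into the gate, had a UMI in 66.4% of control and 44.1% of creatine cells. The summed CPM of H2-Aa, H2-Ab1 and H2-Eb1 was 11040 and 5049 there. The part of these shifts in the Cd40 values was not tested.

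In cDCs, the cells best known for priming naive T cells, Cd40 was at 50.7 CPM (41.7 to 61.1) in control and 145 CPM (124 to 168) in creatine, a log2 ratio of 1.51 (1.16 to 1.87). Of the genes in this gate 9.83% were higher and 10.1% lower by 1.5-fold. All 3 DC subsets had the creatine library above. cDC1, which take up dead cells and present to CD8 T cells, were at 13.4 CPM (6.95 to 23.5) and 101 CPM (74.5 to 134) from 12 and 48 UMIs, where 12.1% of genes were higher by 1.5-fold. cDC2, which present mainly to CD4 T cells, were at 63.7 CPM (49.2 to 81.2) and 127 CPM (100.2 to 159), where 13.3% of genes were higher by 1.5-fold. Ccr7+ DCs, the migratory mature state, were at 128 CPM (88.0 to 180) and 445 CPM (325 to 593), but the creatine value came from 8 cells, and 18.3% of genes were higher by 1.5-fold there.

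The cDC gates were small, and few cells decided the Cd40 level. In the control library 15 of 145 cDCs held 51.8% of the Cd40 UMIs, and the highest cell held 8 of the 110. In the creatine library 9 of 82 cDCs held 58.2% of the Cd40 UMIs, and 1 cell held 28 of the 170. With equal weight for each cell the ratio was 1.04, and with the stricter gates it was 2.10. At 2000 UMIs per cell a Cd40 UMI was found in 12.4% (7.53 to 18.9) of control and 23.2% (14.6 to 33.8) of creatine cDCs, and these intervals overlapped. At 1000 UMIs per cell the shares were 8.97% and 9.76%, and without thinning 37.9% and 56.1%. In cDC2 the direction turned when gates were set on thinned cells, to -0.48 over 23 UMIs. MHC class II UMIs, which went into the gates, were at 24207 and 20596 CPM, and C1q UMIs at 51.1 and 29.8 CPM. In cDC2 Csf1r, which went into the macrophage and monocyte gates, was at 66.7 CPM in control and 142 CPM in creatine. A Csf1r UMI was found in 43.4% and 66.0% of cDC2. Non-dividing cells were 15 of 45 control and 18 of 27 creatine cDC1, and 85 of 145 and 65 of 82 cDCs. A Flt3 UMI was found in 93.3% of control and 66.7% of creatine cDC1. The part of these shifts in the Cd40 difference was not tested.

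**Figure D4:**
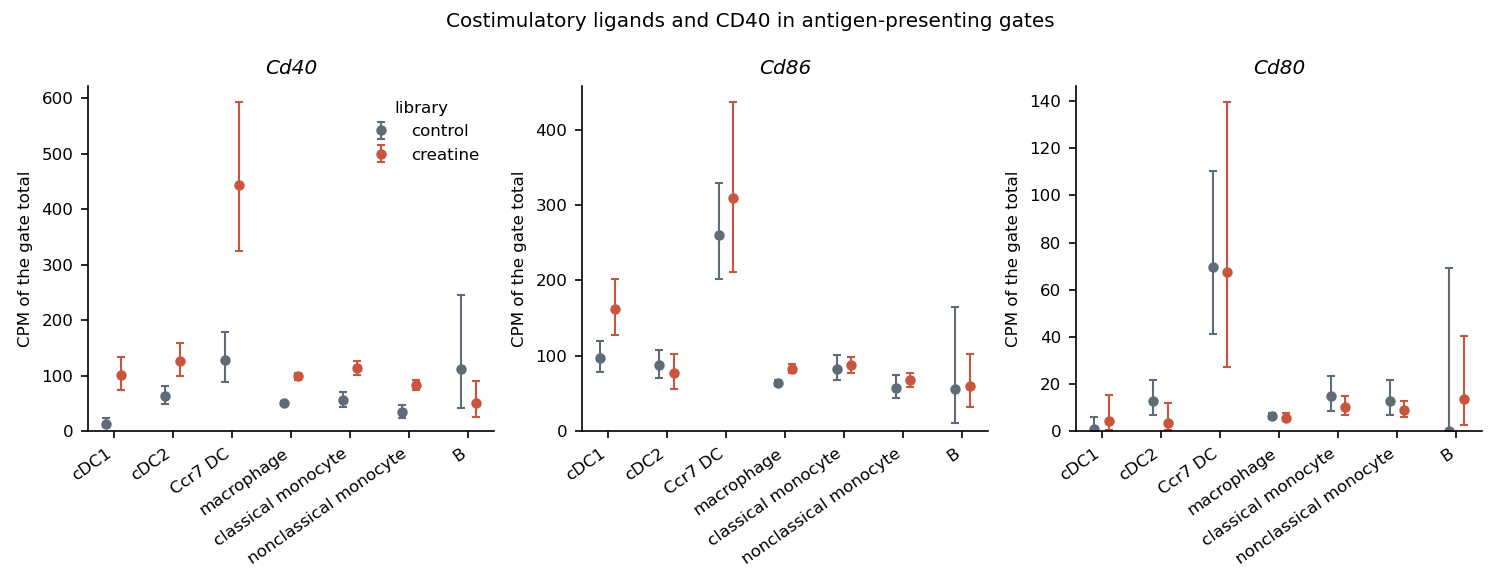
CPM of Cd40, Cd86 and Cd80 in DC, macrophage, monocyte and B cell gates of the control (gray) and creatine (red) libraries, with exact 95% Poisson intervals for counting error. Cd40 is higher in the creatine library in all but the B cell gate, where the control value rests on 6 UMIs, while the Cd86 and Cd80 intervals overlap in most gates.

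The Ccr7+ DCs also carried receptors of the T cell list. Tnfrsf4 was at 77.5 CPM (47.4 to 119.7) and 377 CPM (268 to 515) there, from 20 and 39 UMIs, and Tnfrsf18 at 202 CPM (150.5 to 264) and 87.0 CPM (39.8 to 165), from 52 and 9 UMIs. Tnfrsf9 was at 105 CPM (69.0 to 152) and 48.3 CPM (15.7 to 113), from 27 and 5 UMIs, and the interval of its log2 ratio held 0. All 3 passed 1.5-fold, Tnfrsf4 upward and the other 2 downward, where 18.3% of genes were higher and 17.2% lower. At 2000 UMIs per cell a Tnfrsf4 UMI was found in 3 of 24 control and 5 of 8 creatine cells. With 8 creatine cells, few cells can set such values.

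Cd86, the more abundant of the CD28 ligands, was at 112 CPM (98.3 to 127) in control and 132 CPM (112 to 154) in creatine cDCs, and these intervals overlapped. In cDC1 it passed 1.5-fold, from 97.5 CPM (78.1 to 120) to 162 CPM (128 to 203), with a log2 ratio of 0.73 (0.27 to 1.19). The cDC1 gate held 45 and 27 cells, and 12.1% of its genes were higher by 1.5-fold. Of these cells 15 and 18 were non-dividing, and 93.3% and 66.7% had a Flt3 UMI. The part of these shifts in the Cd86 values was not tested. At 2000 UMIs per cell a Cd86 UMI was found in 17.8% of control and 25.9% of creatine cDC1. The intervals of these shares overlapped. At 1000 UMIs per cell the share was 11.1% in both libraries. In cDC2 Cd86 was at 87.3 CPM (70.1 to 107) and 77 CPM (56.4 to 103). Cd86 was at 63.9 CPM (60.03 to 68.0) and 83.1 CPM (77.1 to 89.4) in macrophages, a log2 ratio of 0.38 (0.24 to 0.52). In non-dividing macrophages alone the ratio came to 0.60, past 1.5-fold.

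Cd80 was counted in cDCs from 32 and 11 UMIs, at 14.7 CPM (10.1 to 20.8) and 9.35 CPM (4.67 to 16.7). This passed 1.5-fold downward, but the interval of the log2 ratio, -1.79 to 0.37, held 0. In macrophages Cd80 was at 6.54 and 5.81 CPM. No Cd80 UMI was found in the 42 and 27 plasmacytoid DCs. B cells gave 6 and 11 Cd40 UMIs, 3 and 13 Cd86 UMIs and 0 and 3 Cd80 UMIs, too few to compare at this depth. Of the genes with enough UMIs in that gate 30.6% were higher and 11.1% lower by 1.5-fold.

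Ligand UMIs were also counted in lymphocytes. CD8 T cells held Cd86 at 20.3 CPM (18.8 to 21.9) and 24.4 CPM (22.7 to 26.2) and Cd80 at 11.5 CPM (10.4 to 12.7) and 10.5 CPM (9.40 to 11.7). NK cells had 2.21 and 2.79 CPM of Cd86 and 0.95 and 0.53 CPM of Cd80. The part of RNA from presenting cells in these values was not tested. Cd40 in CD8 T cells was at 0.68 and 1.07 CPM from 22 and 33 UMIs, below its level in NK cells. That ratio passed 1.5-fold, but its interval of -0.16 to 1.51 held 0. The same was true of Cd80 in Treg cells, at 8.09 and 14.2 CPM from 26 and 27 UMIs. Cd80 in CD8 T cells was concentrated in few cells, with 85.8% of control and 90.4% of creatine UMIs in 10% of them.

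Partners of the members were read as a list of ligands with Ctla4, which shares CD80 and CD86 with CD28. Of the 6 partners Icosl, Tnfsf4, Tnfsf9, Tnfsf18, Cd70 and Ctla4, 5 had enough UMIs in CD8 T cells. None was higher and 3 were lower by 1.5-fold, with a median log2 ratio of -0.78, where 4.97% of all genes were higher and 5.04% lower. Cd70, the ligand of CD27, had the lowest ratio, at 6.93 and 1.99 CPM (log2 ratio -1.80), while Tnfsf9, the 4-1BB ligand, had the highest, at 9.59 and 7.62 CPM (-0.33). In cDCs Icosl was at 47.9 and 34.0 CPM and Tnfsf9 at 24.4 and 19.6 CPM, and neither passed the fold. Tnfsf18, the GITR ligand, had no UMI in the CD8 T, Treg, NK or cDC gates.

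Among 13 other costimulatory receptors, 2 were higher and 0 lower by 1.5-fold in CD8 T cells, and 4 were higher and 0 lower of 11 measured in Treg cells. Of all genes 4.97% and 9.61% were higher in these gates. Tnfrsf25 (DR3), a receptor known to expand Treg cells, had the highest ratio in both, at 0.31 and 0.81 CPM in CD8 T cells and 4.36 and 11.5 CPM in Treg cells, from at most 25 UMIs per library. Slamf6, a receptor of the SLAM family, had the highest ratio in CD4 Tconv cells (log2 1.05) and the lowest in NK cells (-0.90). Crtam had the lowest ratio in CD8 T cells, at -0.27.

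The adaptors and NF-kB genes downstream of these receptors comprised 17 genes. In CD8 T cells 0 of 17 were past the fold and the median log2 ratio was -0.07. Nfkb2, which the TNF receptor family feeds through the noncanonical pathway, had the lowest ratio there, -0.52, and Map3k14, the kinase of that pathway, the highest, 0.43. In macrophages, classical monocytes and nonclassical monocytes the medians were 0.26, 0.29 and 0.25, with 2, 3 and 2 genes higher by 1.5-fold, where 3.42%, 11.1% and 9.02% of all genes were higher. In Treg and NK cells the medians were 0.34 and 0.24, against 0.07 and 0.03 over all genes. There 15 of 17 ratios were above 0 in each gate, where 57.2% and 55.1% of all genes were above 0. By 1.5-fold 1 and 0 of the 17 were higher, where 9.61% and 4.53% of all genes were higher. The survival gene Bcl2l1 was lower in classical monocytes (log2 ratio -1.92), where 9.07% of all genes were lower. Nfkbie, an NF-kB inhibitor that NF-kB itself induces, had the highest ratio in the macrophage, classical monocyte and nonclassical monocyte gates, with log2 ratios of 0.82, 1.26 and 1.30. In cDCs 2 genes were higher, where 9.83% of all genes were higher. The median there was 0.25 and Nfkbie was at 43.8 and 46.8 CPM.

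Of 12 genes of CD28 signaling, 0 were past the fold in CD8 T cells, CD4 Tconv cells or NK cells. In Treg cells 5 were higher and 0 lower, where 9.61% of all genes were higher and 6.14% lower. The median over the 12 was 0.25 in Treg cells and 0.14 in CD8 T cells. These lists were described by counts only, and none of them was tested. In Treg cells all of the lists were read over the whole gate, not in dividing and non-dividing cells apart. Dividing cells held 58.1% of that gate's UMIs in control and 37.2% in creatine. The part of this shift in the list values was not tested.

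Genes with the most similar levels were ranked by Pearson r of log2(CPM + 1) over 26 points, 13 gates in 2 libraries. The points share libraries and cell types, so r only describes how alike the profiles were. Nmb, Gata3 and Camk4 were nearest to Cd28 (r of 0.89, 0.88 and 0.88), Sv2c, Spock2 and Adgrl1 to Icos (0.94, 0.92 and 0.92) and Gimap1, Gpr174 and Trp53 to Cd27 (0.94, 0.93 and 0.93). Hmgn5, Lck and Tox were nearest to Tnfrsf9 (0.93, 0.92 and 0.90), and Sept1, Cd82 and D16Ertd472e to Tnfrsf18 (0.87 each). Ifi205, Naaa and Ppfibp2 were nearest to Cd86 (0.87, 0.85 and 0.83) and Cnn3, Ccz1 and Trappc2l to Cd40 (0.88, 0.87 and 0.87). Lgals7, Trat1 and Calca were nearest to Cd40lg (0.94, 0.92 and 0.90), and Gm14005, Slc16a3 and AC139671.1 to Cd80 (0.84, 0.84 and 0.80). Among the members themselves Cd27 and Tnfrsf18 had the highest r, 0.88, and Cd86 and Cd40 had an r of 0.65.

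Tnfrsf4 was nearest to Gm11579, Gm20275 and Sdf4 (0.93, 0.92 and 0.92). Sdf4 (chr4:155992872-156013610), which encodes a calcium-binding protein of the Golgi, ends 232 bases before Tnfrsf4 begins on the same strand. It was at 1088 and 955 CPM in Treg cells, 605 and 421 CPM in CD4 Tconv cells and 299.5 and 264 CPM in CD8 T cells. In macrophages and nonclassical monocytes, which had little Tnfrsf4, it was at 142 to 149 CPM. In Treg cells Sdf4 was lower and Tnfrsf4 higher in the creatine library. Whether reads of one gene were counted for the other was not tested.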

How the data were processed

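The authors deposited 1 matrix per library of unnormalized UMI counts, by gene and called cell, made with Cell Ranger 3.0.2 and mm10 according to the submitters' processing notes. The annotation release was not given in the sources used here. The 10 members and the gene lists were chosen with earlier results of these data known.

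Cells above 25% mitochondrial UMIs, under 300 UMIs or under 100 genes were left out. The markers of the 15 gates were listed beforehand, but their UMI thresholds were set after the marker distributions were seen. CD8 T cells, for example, needed 3 UMIs of Cd3d, Cd3e and Cd3g and 2 of Cd8a and Cd8b1. Dividing cells had at least 5 and non-dividing cells fewer than 2 UMIs of 8 cell cycle genes. No doublet caller was run, and cells with markers of another lineage were left out, by markers that differed between gates. The neutrophil gate, for example, set no limit on MHC class II genes. UMIs were summed per gate and library with Python 3.11.15, numpy 2.4.6, scipy 1.17.1 and pandas 2.3.3. With 1 library per group no test was made. A count of 0 allows up to 3 counts. The calculations were tested on simulated counts.

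Named genes were the members, their 3 most similar genes with at least 100 UMIs, and the largest rise and fall in each list. A gene named by this rule is not reported here. Cd244a is listed in the files as Cd244. Alternatives were TMM scaling (edgeR 4.0.16, factors only), totals that omit mitochondrial and ribosomal protein genes, each cell weighted equally, at least 500 genes with at most 10% mitochondrial UMIs, doubled marker thresholds, gates on cells thinned to 2000 UMIs, other-lineage cells kept, non-dividing cells only, CD4 Tconv cells without Ikzf2, and no minimum or a minimum of 100 UMIs.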

Additional observations from a re-analysis of the deposited data

Results flagged for a closer look

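The ratio of creatine to control went in opposite directions in different lymphocyte gates for 3 members, with the counting interval on each side clear of 0. With 1 library per group these differences between gates were not tested.

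For Tnfrsf4 the log2 ratio in Treg cells exceeded that in CD8 T cells by 0.86, and the ratios in CD4 Tconv cells and in NK cells differed from that in Treg cells by -0.85 and -1.22. The NK ratio of Tnfrsf4 rests on 33 and 42 UMIs, at a level not set apart from gates outside the T and NK cells. For Tnfrsf18 the ratio in Treg cells exceeded that in CD8 T cells by 0.74, and CD4 Tconv cells differed from Treg cells by -0.48. For Tnfrsf9 the ratio in Treg cells exceeded that in CD8 T cells by 0.35 and NK cells exceeded CD8 T cells by 0.80, while CD4 Tconv cells differed from Treg cells by -1.001 and NK cells exceeded CD4 Tconv cells by 1.45.

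Each difference that involves Treg cells is one of all Treg cells. In non-dividing Treg cells the ratios of Tnfrsf4, Tnfrsf9 and Tnfrsf18 were -0.17, -0.30 and -0.11, on the same side of 0 as in CD8 T cells. The interval of the Tnfrsf18 ratio there held 0. The differences of Tnfrsf9 that involve CD4 Tconv cells rest on a ratio of -0.89, which was 1.00 without Ikzf2 cells and -0.10 in non-dividing cells. The ratio of Tnfrsf18 in CD4 Tconv cells, -0.23, was 0.16 without Ikzf2 cells. The opposite direction of Tnfrsf9 in NK cells and CD8 T cells was present in non-dividing cells too, with ratios of 0.50 and -0.11.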

How the results depend on the processing

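No paired analysis was possible because each group had 1 library. Ratios of the 6 receptors in CD8 T cells, of Cd40 in macrophages and of Tnfrsf9 in NK cells kept their direction in all 8 alternatives. The alternatives covered the receptors in CD8 T, Treg, CD4 Tconv and NK cells, with Cd40lg in the T cell gates among these. They also covered Cd80, Cd86 and Cd40 in cDCs and their subsets, macrophages, monocytes and B cells. Other ratios past 1.5-fold were not rerun. Of those rerun, the ones that changed sign were Tnfrsf9 in CD4 Tconv cells without Ikzf2 cells (1.00) and Cd40 in cDC2 on thinned gates (-0.48, 23 UMIs). Among the 44 ratios with at least 30 UMIs the sign changed for 9 in non-dividing cells, 5 with equal weight, 5 on thinned gates, 4 in stricter gates, 4 with other-lineage cells kept and 0 with TMM scaling, the strict cell filter or other totals, and for 2 of 7 without Ikzf2 cells. The cause of the changes was not tested. Members higher in CD8 T cells numbered 1 in place of 0 on thinned gates or with no UMI minimum, and members higher in Treg cells and in NK cells 1 in place of 0 with the strict cell filter or with other-lineage cells kept. With equal weight per cell, 1 member was lower in Treg cells in place of 0 and 2 in CD4 Tconv cells in place of 1. Members higher in CD4 Tconv cells numbered 1 in place of 2 without mitochondrial and ribosomal genes, with equal weight, in stricter or thinned gates and in non-dividing cells, and members lower there 0 in place of 1 on thinned gates, with other-lineage cells kept, in non-dividing cells and without Ikzf2 cells. A minimum of 100 UMIs left 0 members lower in NK cells and in cDCs in place of 1, as did stricter gates in cDCs. In non-dividing macrophages 2 were higher in place of 1. In B cells 1 was higher with other-lineage cells kept and 1 lower with no UMI minimum, in place of 0. B cells, Ccr7+ DCs and Cd80 were limited by depth.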
